A study of Rattus norvegicus with 2 samples.

Results

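The desaturases and elongases of fatty acids are the enzymes of the endoplasmic reticulum that place double bonds in fatty acyl chains and lengthen them by a pair of carbons at a time. The rule took 9 genes, the desaturases Scd, Fads1, Fads2 and Fads3 and the elongases Elovl1, Elovl2, Elovl3, Elovl5 and Elovl6, out of 14217 genes on the arrays, and all probe sets that the platform's annotation gives to 1 of these genes alone. This gave 11 probe sets, 2 each for Elovl5 and Elovl6 and 1 for each of the other genes, and no probe set shared a member with another gene.

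Scd, stearoyl-CoA desaturase, makes oleate and palmitoleate from the saturated stearate and palmitate. Fads2 and Fads1 act in turn, with the elongases Elovl5 and Elovl2, on the essential fatty acids linoleate and linolenate, and so lead to arachidonate and the long n-3 fatty acids. Elovl6 lengthens palmitate to stearate, Elovl1 and Elovl3 act on longer saturated and monounsaturated chains, and Fads3 is a related desaturase. In liver, transcription of several of these genes is known to be driven by the lipogenic factor Srebf1 and restrained by polyunsaturated fatty acids, and oleate, a product of Scd, is the main fatty acid of olive oil.

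Liver RNA came from male Wistar rats, an outbred strain, aged 2 months and weighing 250 to 300 g, all kept on standard chow and then fasted for 18 h. One group (fasted) was given no fat, and the other (olive oil) was given a bolus of 5 ml of extra virgin olive oil, about 16 ml per kg, and killed after 4 h. Whether the fasted rats were kept 4 h longer is not stated, so the oil and a longer time without chow cannot be told apart. Each group was measured on 1 Affymetrix array, and neither the number of livers behind an array nor the hour of killing is stated. Every difference is therefore olive oil minus fasted between 2 arrays, with no replicate check and no p-value.

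The values are signal intensities in arbitrary units, with a median of 42.5 on the fasted and 44.7 on the olive oil array. Signals under 12.8, the 25th percentile, were raised to that floor before the log2 was taken, and probe sets were called measured from a mean log2 signal of 5.37 upward (a signal of 41.4), the median. A gene was represented by its brightest measured probe set. The only error that these data hold is the scatter between measured probe sets of one gene, with a pooled SD of 0.35 on the log2 scale over 2290 genes and 0.23 over the 853 genes with bright probe sets. It covers probe error and not the spread between rats. Poly-A control transcripts had lower signals on the olive oil array in 21 of 24 probe sets, by a median of -0.22 on the log2 scale, and the 3′ to 5′ ratio of beta-actin, which reads RNA integrity, was 2.63 (fasted) and 3.20 (olive oil). Their part in the differences below was not tested.

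All 4 desaturases had a lower signal after olive oil, and so did Elovl2 and Elovl5, the elongases of polyunsaturated chains, whereas Elovl1 was almost equal and Elovl6 was higher. Of 9 member genes, 8 were measured and 7 of these had a negative difference, beside 51.7% of all measured genes. Of the 8, 3 were at least 2-fold lower, against 2.92% of all 9209 measured genes, and 0 at least 2-fold higher, against 3.21%. At 1.5-fold, 5 were lower and 0 higher, where 10.1% of all measured genes were lower and 9.44% higher. The median log2 difference of the 8 genes was -0.89, beside -0.01 over all measured genes. The members were chosen with earlier results of these arrays known, so that these counts describe them and test nothing. In liver tissue, fewer cells of a type and less RNA per cell cannot be told apart.

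**Figure D1:**
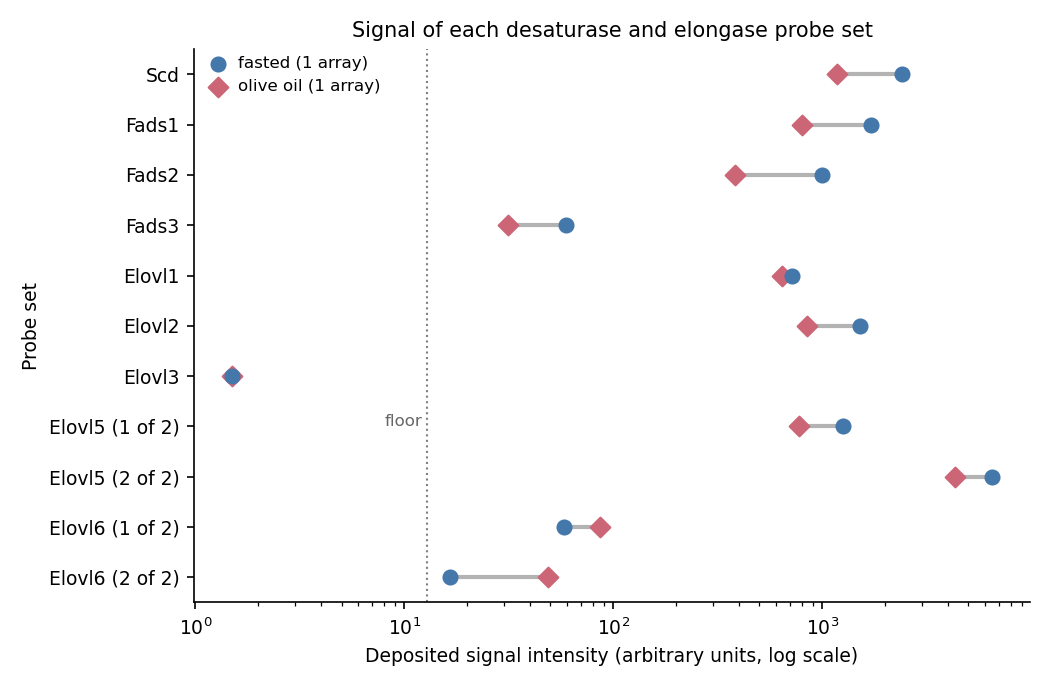
Deposited signal intensity (log axis, arbitrary units) of each of the 11 probe sets on the fasted array (circles) and the olive oil array (diamonds), 1 array per group, with the floor of 12.8 as a dotted line. Fads2 lies at 999.3 and 380.8, and the Elovl6 probe sets are the only ones with the diamond to the right of the circle.

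Among the desaturases, Fads2, the delta-6 desaturase that takes the first step from linoleate, had the widest gap. Its signal was 999.3 on the fasted and 380.8 on the olive oil array, which is 38.1% of the fasted value and a log2 difference of -1.39. Fads1, the delta-5 desaturase that acts after it and forms arachidonate, had signals of 1710.5 and 795.8, and the olive oil value was 46.5% of the fasted one. Both genes of the polyunsaturated route thus lay more than 2-fold lower, and their log2 differences of -1.39 and -1.10 were larger than the pooled SD of 0.35 between probe sets.

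Scd, the desaturase of saturated chains, had signals of 2398.1 and 1180.7, a log2 difference of -1.02 that is just past 2-fold. The olive oil signal was 49.2% of the fasted one. Ordered from the lowest difference among 9209 measured genes, Fads2 had rank 91, Fads1 rank 197 and Scd rank 260. Fads3 stood at 59.3 and 31.2, 1.90-fold lower and at rank 332, but on a dim probe set with a mean log2 signal of 5.43, just above the limit of 5.37 for a measured probe set. Its log2 difference was -0.93, and -0.44 when the floor was set at the 50th percentile. Each desaturase was read by 1 probe set, so that none had a second reading on the same array.

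**Figure D2:**
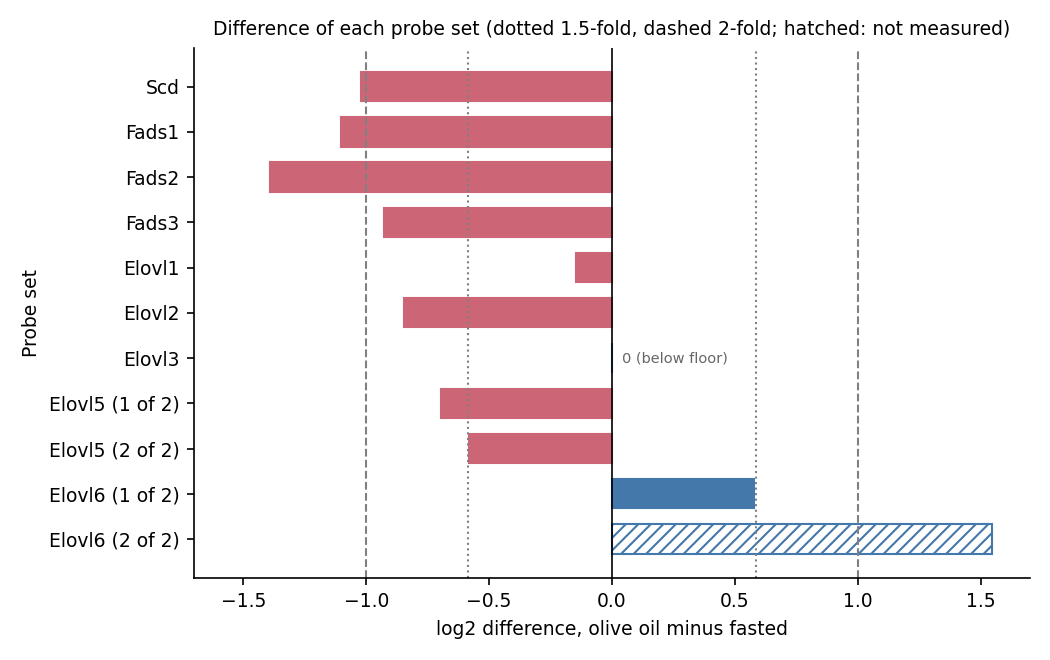
Log2 difference (olive oil minus fasted) of each probe set, with 1.5-fold as dotted and 2-fold as dashed lines; hatching marks probe sets too dim to count as measured. The 4 desaturases lie between -1.39 and -0.93, and Elovl6 is the only gene with bars above 0.

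Fads3, Fads2 and Fads1 lie next to each other on chromosome 1 with no other protein-coding gene between them in the RefSeq annotation of the GRCr8 assembly. The neighbours were looked up by position after the values of the members were seen. Tmem258, beyond Fads1, had signals of 1423.5 and 1379, a log2 difference of -0.05. Fen1, a DNA repair nuclease gene next to Fads1, was dim at 43.6 and 48.4, and Myrf stood at 144.9 and 116.8, a log2 difference of -0.31. On the other side, Rab3il1 was too dim to count as measured, at 20.7 and 29.9. None of these 4 neighbours was at least 1.5-fold lower, where 10.1% of all measured genes were. Scd lies in a cluster of related desaturase genes on the same chromosome, of which Scd2 was dim on all of its 4 probe sets, with a highest signal of 73. On its 1 measured probe set Scd2 stood at 67.7 and 73, a log2 difference of 0.11, beside -1.02 for Scd. Outside this cluster, Bloc1s2 stood at 124.1 and 242.5, 1.95-fold higher, and Ndufb8 at 264.7 and 352.9, 1.33-fold higher. Wnt8b was below the floor on both arrays.

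Promoter sequence is shown for the 2 desaturase neighbours with the lowest differences and, as an example of an elongase, for Elovl5. Elovl2, at a log2 difference of -0.85 beside -0.58 for Elovl5, is not printed, so the choice says nothing about motifs shared by the lower members. The RefSeq promoter table (GRCr8) runs from 250 bases before to 50 after a start, and it held 8 of the 9 members, all but Elovl6. Only bases upstream of the annotated gene are printed, 5′ to 3′ on the gene's own strand, with matches to the searched motifs in capitals. The stretches are chr1:216252442-216252604 on the plus strand for Fads1, chr1:216172191-216172283 on the minus strand for Fads2, and chr8:87670914-87671163 on the plus strand for Elovl5.
Fads1: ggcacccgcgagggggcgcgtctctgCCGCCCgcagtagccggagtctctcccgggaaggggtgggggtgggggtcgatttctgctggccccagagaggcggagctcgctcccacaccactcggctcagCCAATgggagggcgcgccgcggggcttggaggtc
Fads2: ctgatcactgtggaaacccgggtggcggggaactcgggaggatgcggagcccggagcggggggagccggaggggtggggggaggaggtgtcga
Elovl5: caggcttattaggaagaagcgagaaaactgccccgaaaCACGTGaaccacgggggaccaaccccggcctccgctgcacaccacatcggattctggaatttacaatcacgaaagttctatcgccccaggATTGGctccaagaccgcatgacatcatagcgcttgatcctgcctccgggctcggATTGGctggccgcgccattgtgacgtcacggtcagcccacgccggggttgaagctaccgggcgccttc

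The motifs searched on both strands of the 300-base windows were CCAAT, the core of the NF-Y site, the GC box GGGCGG, the E-box CACGTG (a palindrome), the sterol element TCACNCCAC, the nuclear receptor motif AGGTCA and its direct repeats spaced by 1 and by 4 bases, which contain that motif, and the TATA box TATAAA. Fads1 held CCAAT at position -121 from its start, and a GC box on the other strand at -224. The printed bases of Fads2 hold none of the motifs, and its whole window held 1 GC box, at -99, inside the annotated gene. Elovl5 held CCAAT on the other strand at -122 and at -68, and the E-box at -212. Elovl2 had 7 GC boxes in the window of its first start, which is 84.7% G and C. Scd held none of the motifs in its window. That window, like those of Fads3 and Elovl1, held no bases upstream of the annotated gene, so that the sequence upstream of these genes was not searched. The counts over members below include these windows. CCAAT was found in 4 of 8 members and in 37.5% of the 33469 windows of all genes, and the GC box in 5 of 8 members and 33.1% of windows. The E-box was found in 2 of 8 members and 6.42% of windows, and the sterol element in 0 of 8 and 1.12%. AGGTCA stood in 16.2% of all windows, the TATA box in 14.2%, and the direct repeats in 0.0538% (spacing of 1) and 0.00598% (spacing of 4), and none of these in a member. A match describes letters and is no binding site, and the windows leave out sequence farther away.

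Of the 5 elongases, Elovl2 and Elovl5, which serve the same route as Fads1 and Fads2, were the members with the lowest differences. Elovl2, which extends the long polyunsaturated chains that precede docosahexaenoate, had signals of 1515.6 and 842.6, a log2 difference of -0.85. Elovl5, which extends the products of Fads2, was read by 2 probe sets. On the brightest probe set it stood at 6467 and 4320.8, a log2 difference of -0.58 that falls just short of 1.5-fold, and on the other at 1253.5 and 773.4, 1.62-fold lower. The mean over both Elovl5 probe sets was -0.64 with an SD of 0.08 (n = 2 probe sets). For no other member did a pair of measured probe sets exist, and these probe sets share the RNA of the same 2 arrays.

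Elovl6, the elongase that turns palmitate into stearate and so supplies the substrate of Scd, went the other way. Its measured probe set had signals of 57.9 and 86.5, 1.49-fold higher. Its other probe set was also higher, at 16.6 and 48.5, but was too dim on average to count as measured, and its fasted signal lay close to the floor of 12.8. Both readings of Elovl6 were dim. Elovl1, an elongase found in most tissues, had signals of 712.5 and 642.9, a log2 difference of -0.15, smaller than the pooled SD of 0.35 between probe sets. Elovl3 was listed at 1.5 on both arrays, below the floor, and no difference is given for it.

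Set side by side, the desaturases had a median log2 difference of -1.06 and a range from -1.39 to -0.93, and the 4 measured elongases a median of -0.37 and a range from -0.85 to 0.58. The 2 ranges do not overlap in the reported setting, where the desaturase nearest to the elongases is the dim gene Fads3. Without Fads3 the desaturases would end at -1.02 for Scd, farther from Elovl2 at -0.85. With the higher floor (50th percentile) Fads3 was at -0.44 and Elovl2 at -0.85, and with the offset of 16 they were at -0.67 and -0.83, so that the ranges overlapped. By substrate, the 4 genes of the polyunsaturated route (Fads2, Fads1, Elovl2 and Elovl5) were all lower, while the genes of saturated and monounsaturated chains went from -1.02 for Scd to 0.58 for Elovl6.

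**Figure D3:**
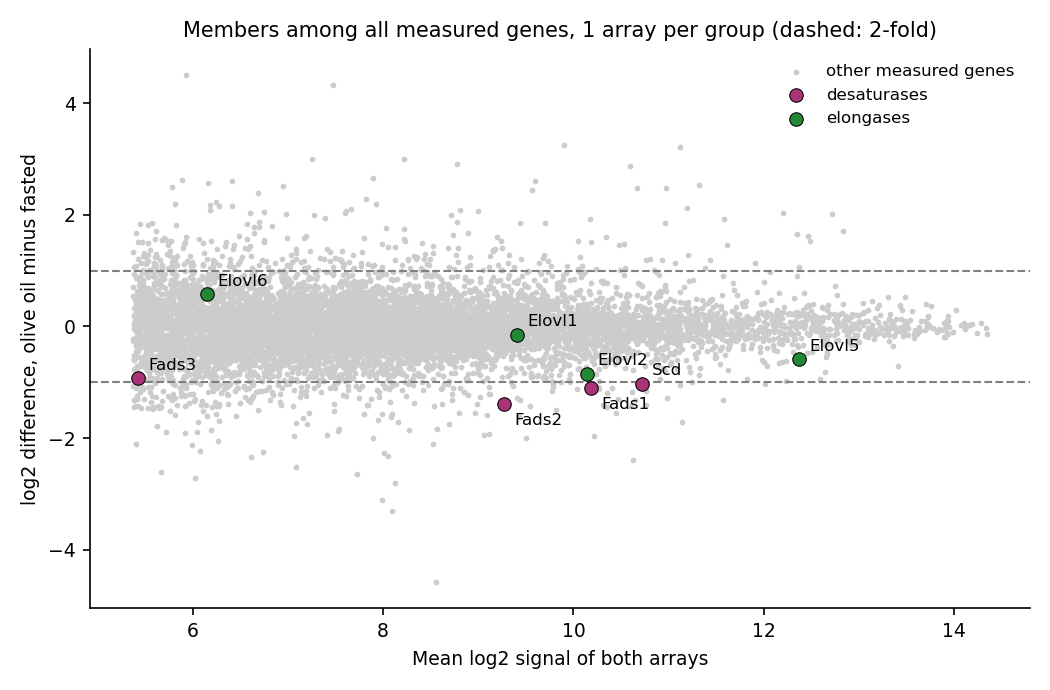
Log2 difference (olive oil minus fasted) against mean log2 signal for each of the 9209 measured genes (grey) with the 4 measured desaturases and 4 measured elongases marked; the dashed lines are 2-fold. Fads1, Fads2 and Scd lie below the lower line at mean log2 signals above 9, where most grey points lie within it.

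The direction of each measured member held under all alternatives in which it was measured. Scd, Fads1 and Fads2 stayed at least 2-fold lower in 10 of 10 alternative settings, with log2 differences of -1.10 to -1.01 for Scd, -1.18 to -1.09 for Fads1 and -1.46 to -1.36 for Fads2. Elovl2 stayed between 1.5-fold and 2-fold lower in 10 of 10, from -0.92 to -0.83. Elovl5 was at least 1.5-fold lower in 4 of 10, with a range of -0.65 to -0.58. Elovl6 stayed higher in 9 of 9 settings in which it was measured, from 0.47 to 0.58, and its value too moved only under the normalizations and the offset.

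**Figure D4:**
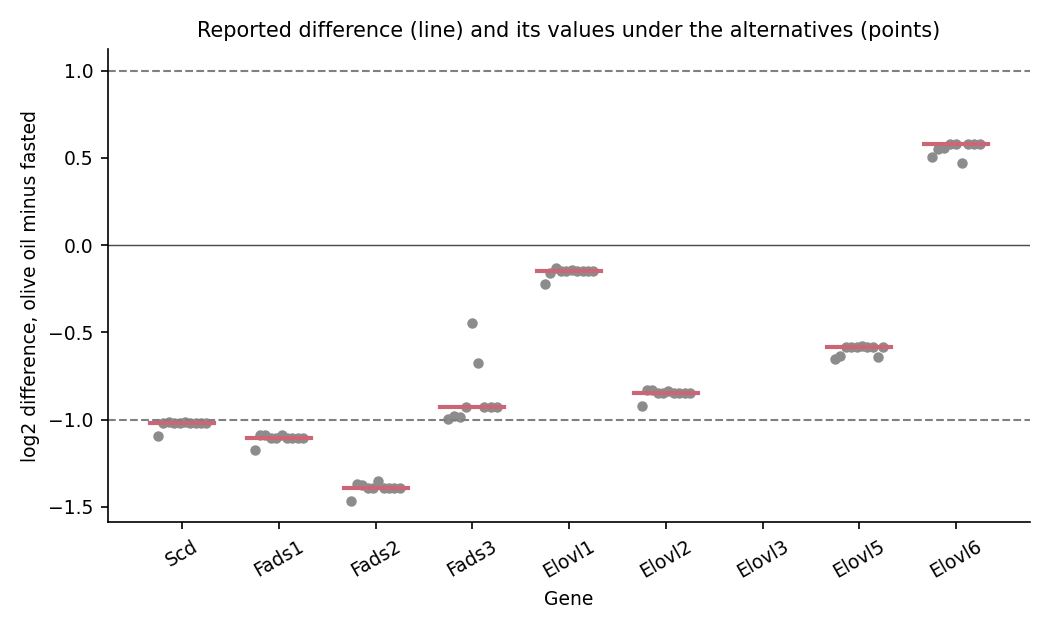
Log2 difference (olive oil minus fasted) of each gene as reported (line) and under the alternative settings in which it counted as measured (points), with 2-fold as dashed lines. Points of Fads2 lie between -1.46 and -1.36, those of Fads3 reach up to -0.44, and Elovl3, below the floor on both arrays, is not drawn.

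Of 13 listed partners of the members, 10 were measured. They hold a reductase and dehydratases that act in the elongation round, the cytochrome b5 system that feeds electrons to the desaturases, the ceramide synthase gene Cers2 and the acyl-CoA binding protein gene Dbi. None of the 10 was at least 1.5-fold different, as for 80.5% of all measured genes, 8 had a negative difference, beside 51.7% of all measured genes, and the median was -0.17. Hsd17b12, the ketoacyl-CoA reductase of elongation, had signals of 3027.8 and 2710.1. The dehydratase genes Hacd2 and Hacd3 differed by -0.33 and 0.21. Cyb5a, cytochrome b5, stood at 11314.9 and 11864.8, a log2 difference of 0.07, and Cyb5r3, its reductase, at 2104.8 and 1603.6, a log2 difference of -0.39. Of a list named other desaturases and elongases, 5 of 11 genes were measured: Scd2, Degs1, Msmo1, Sc5d and Faxdc2. None of these is an elongase, and not all are fatty acid desaturases. Of the 5, 1 was at least 1.5-fold higher (20%, beside 9.44% of all measured genes) and none at least 1.5-fold lower. That gene was Faxdc2, at 51.9 and 294.9. It is a gene with a fatty acid hydroxylase domain, so this share does not describe desaturases or elongases.

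Of 10 measured genes for the supply of palmitate, the substrate of Elovl6, 1 was at least 1.5-fold lower (10%, beside 10.1% of all measured genes). In the other direction 2 were higher (20%, beside 9.44%), and the median was -0.07. Acaca, acetyl-CoA carboxylase, which commits carbon to fatty acid synthesis, was 1.64-fold higher at 321.9 and 527.1, and 1.59-fold on a dimmer probe set. Fasn, the synthase that releases palmitate, and Acly, which makes its acetyl-CoA, differed by 0.28 and -0.09. Thrsp was 2.34-fold higher and Mid1ip1, its relative, 2.95-fold lower.

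**Figure D5:**
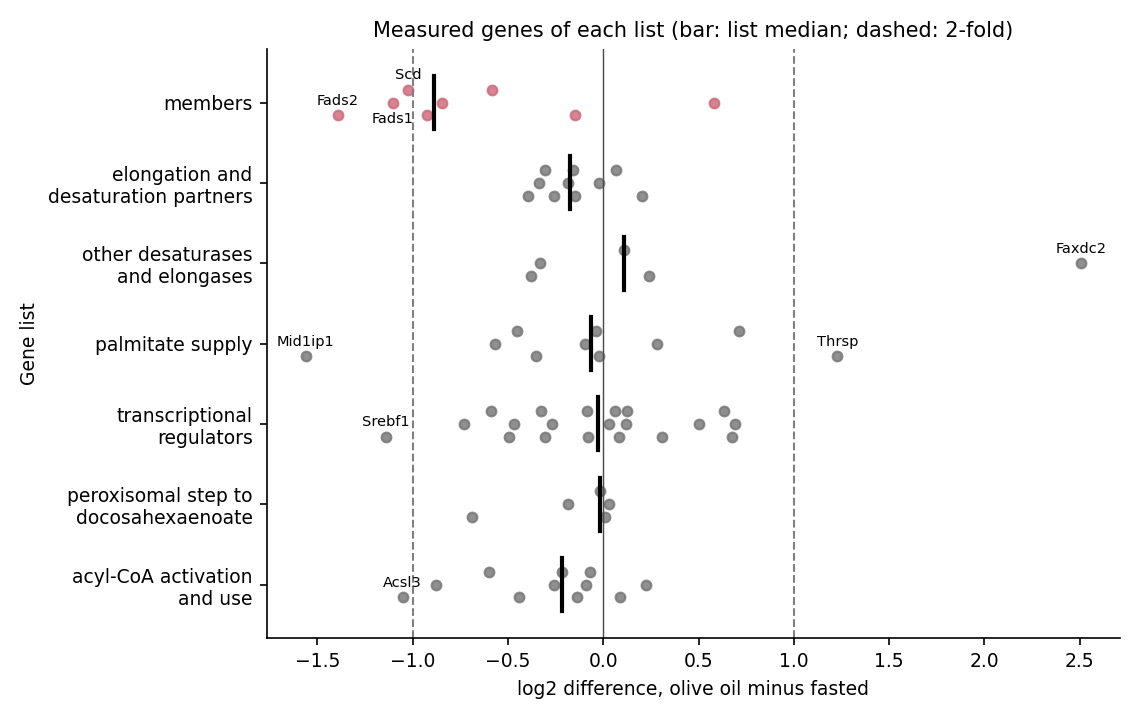
Log2 difference (olive oil minus fasted) of each measured gene of the members and of 6 related lists, with the list median as a bar and 2-fold as dashed lines. The member median lies at -0.89, and the medians of the other lists lie between -0.22 and 0.11. The list labelled other desaturases and elongases holds no measured elongase.

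Among 20 measured transcriptional regulators of these genes, 3 were at least 1.5-fold lower (15.0%, beside 10.1% of all measured genes), 3 higher (15.0%, beside 9.44%) and 14 between, with a median of -0.03. Srebf1 was lower on both of its probe sets, at 294.8 and 133.6 on the brighter and 165.4 and 51.8 on the other. Nr1h3, the oxysterol receptor LXR-alpha, which drives Srebf1, stood at 1620 and 1078.4, a log2 difference of -0.59. Usf1 was 1.66-fold lower, and 1.35-fold lower on its dimmer probe set. Insig1, which holds the Srebf proteins in the endoplasmic reticulum, was 1.55-fold higher at 1616.1 and 2509.6, while the 2 probe sets of Insig2 disagreed, at -0.47 and 0.14. Mlx was 1.61-fold higher, but 1.26-fold on its dimmer probe set, and Ppargc1b was 1.60-fold higher. Mlxipl, the carbohydrate-sensing partner of Mlx, differed by -0.33. Ppara was too dim to count as measured, at 36.6 and 35.8. Of these 1.5-fold calls, that of Nr1h3 held in 7 of 10 alternatives, that of Usf1 in 8 of 9, and those of Insig1 and Mlx in 9 of 10 each.

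Downstream of the members, the peroxisomal genes that finish docosahexaenoate had 1 of 5 measured genes at least 1.5-fold lower and a median of -0.02. This was the import receptor gene Pex5, at 1.61-fold, and at 1.43-fold on a dimmer probe set. Of 11 measured genes that activate fatty acids or place them in phospholipids and triglycerides, 3 were at least 1.5-fold lower, none was higher, and the median was -0.22. These were the acyl-CoA synthetase gene Acsl3 at 2.07-fold, the acyltransferase gene Mboat1 at 1.83-fold and Acsl5 at 1.51-fold, the last with a dimmer probe set at 0.35. Over all 6 lists together, 61 genes were measured, 8 of them (13.1%) at least 1.5-fold lower and 6 (9.84%) higher, near the 10.1% and 9.44% of all measured genes.

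The tissue label fitted the signals of hepatocyte genes, such as albumin at 17154.4 and 17983.9. All 9 hepatocyte markers on the arrays lay within 1.5-fold between the arrays, as for 80.5% of all measured genes. They were read on very bright probe sets, with signals of 10739.2 (Cps1, olive oil) or more. Fat cells, which also make Scd and Elovl6, were looked for with 6 markers, 5 of them on the arrays and 2 measured. The summed signal of the 5 was 306.9 on the fasted and 346.3 on the olive oil array. The measured ones were Lipe at 108 and 70.9, 1.52-fold lower, and Cfd at 163.6 and 177.9. Of the dim ones, Lep stood at 16.8 and 14.0, Adipoq at 3.2 and 28.2, and Plin1 at 15.3 and 55.3 on one probe set and 11.3 and 4.4 on the other. Of the brown fat markers, Ucp1 and Dio2 were below the floor on both arrays. Cidea, also a lipid droplet gene and the only measured marker of that list, stood at 266.4 and 850.2, 3.19-fold higher. The lists of macrophages (5 measured markers), cholangiocytes (2), red cells (2) and exocrine pancreas (1) are grouped here because 0 of their measured markers were at least 1.5-fold different. Within 1.5-fold lay 80.5% of all measured genes. The dim cholangiocyte markers were Krt19 at 52.1 and 30.2 and Krt7 at 7.3 and 19.5. The dim pancreas markers were Amy2a3 at 3.8 and 44.3, Pnlip at 24.2 and 45.9, Prss1 at 12.2 and 18.8, and Cpa1 at 12.9 and 7.2. Of the 6 stellate cell markers, Lrat was at least 1.5-fold lower, at 183.6 and 122 (16.7%, beside 10.1% of all measured genes). Dcn was at least 1.5-fold higher, at 202.7 and 363.6 (16.7%, beside 9.44%). Of the 4 endothelial markers, Lyve1 was at least 1.5-fold higher, at 1798.1 and 2741.1 (25%, beside 9.44%). The part of such cells in the differences of the members was not tested.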

How the data were processed

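Liver RNA of 2 samples was measured on 1 Affymetrix rat array each, and samples were grouped by their titles. The deposited values are signal intensities on a linear scale that the authors made with Affymetrix Expression Console, per the submitters' processing notes; the software's version is unknown and its algorithm not given in the sources used here. Both arrays had a mean of 200.1 after trimming 2% at each end, a sign of scaling to a common level; such scaling takes the bulk of transcripts as equal. No detection calls were used, and the number of arrays limits the precision.

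Of 31099 probe sets, 57 controls were left out of all counts. Signals were floored at the 25th percentile, log2 transformed and not normalized further, and 15521 probe sets passed the filter at the median. Probe sets with 1 gene in the platform's annotation (20826) were named through RefSeq gene IDs (GRCr8, names and gene order only). With 1 array per group no test was run, and 2-fold and 1.5-fold sizes replaced a threshold. The members and lists were chosen with earlier results of these data known. Named were all members, the genes of the lists at least 1.5-fold different, and 15 further genes whatever their values, of which Tecr was not analysed here; neighbours and cell type markers are marked as such. The functions were tested on simulated arrays. The 10 alternatives were median centring, loess and quantile normalization, an offset of 16, no floor or one at the 50th percentile, no filter or one at the 75th percentile, means over probe sets, and omission of shared-transcript suffixes. Python 3.11.15, numpy 2.4.6, pandas 2.3.3 and statsmodels 0.14.6 were used.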

Additional observations from a re-analysis of the deposited data

How the results depend on the processing

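No paired analysis was possible because each group has 1 array. Of the counts and the median over member genes, those of 2-fold and 1.5-fold changes stayed within 1.5 times of the reported count under all 10 alternatives. The median of -0.89 became -0.75 under an offset of 16 and -0.71 under the higher floor (50th percentile), both of which shrink the differences of dim genes by construction. Among the related genes, 1 instead of 2 was at least 2-fold higher and 5 instead of 8 at least 1.5-fold lower with a filter at the 75th percentile, which left 50 of the 61 genes. With the arrays centred on their medians, all genes shifted by -0.07, and the balance of all measured genes at 1.5-fold went from 931 lower and 869 higher to 1168 lower and 700 higher. Acsl3 was -0.90 and thus under 2-fold with the offset, and Acsl5 was -0.13 with the mean over its probe sets. No reported direction of a named gene at least 2-fold different was turned under any alternative. Without a filter on dim probe sets Elovl3 was counted as well, with a difference of 0, and the median over 9 members was -0.85. The single array per group and the dim signals of Fads3, Elovl6 and Scd2 limit the reading.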
